A study of Mus musculus with 9 samples.

Results

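The aryl hydrocarbon receptor pathway was followed through 5 genes, Ahr, Arnt, Cyp1b1, Tiparp and Xdh, in mouse fibroblasts in which the NEDD8-conjugating enzymes Ube2m or Ube2f had been targeted by shRNA. The 5 genes were taken by symbol and are covered by 14 of the 45101 probe sets on the array, out of 18193 genes with a probe set of their own. They were chosen with earlier results from these same arrays in view, so their differences between groups are given as descriptions with standard errors and without p-values. The cells were NIH 3T3, an established fibroblast line from mouse embryos, and the growth label of all 9 samples says that they expressed Ube2f. The sources used here do not say whether this means the endogenous gene or an introduced one. Cells received a retroviral vector with a Ube2m shRNA, a Ube2f shRNA or a control shRNA, and RNA was taken 5 days later, with 3 biological replicates per group. The labels name 1 hairpin per target, so hairpin and target cannot be told apart. NIH 3T3 cells are an immortal line, and the results concern a culture with no added receptor ligand named in the labels.

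The aryl hydrocarbon receptor, encoded by Ahr, is a ligand-activated transcription factor of the bHLH-PAS family that waits in the cytoplasm bound to chaperones. After binding a ligand such as a dioxin, a polycyclic aromatic hydrocarbon or a tryptophan derivative it enters the nucleus, pairs with ARNT and binds response elements whose core reads GCGTG. The pair switches on genes of foreign-compound metabolism, among them the Cyp1 family, and the receptor is also known as a substrate adaptor of a cullin ligase built on CUL4B. Ube2m and Ube2f encode enzymes that attach the ubiquitin-like protein NEDD8 to cullins, the scaffolds of many ubiquitin ligases. The study compared what loss of each enzyme did to the transcriptome.

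Cyp1b1, Ahr and Xdh had higher signals in Ube2m shRNA cells than in control cells, by 3.40-, 3.30- and 2.52-fold on the scale of signal plus 16. Ahr was under the low-signal level in control cells, so its fold depends on the constant added and the probe set read. Cyp1b1 was lower in Ube2f shRNA cells, at 0.42 of the control value on that scale. Between the hairpins Cyp1b1 was 8.06-fold higher with Ube2m shRNA than with Ube2f shRNA. Arnt and Tiparp, by the probe set used for each gene, differed by at most 0.46 on the log2 scale in size in each of the 3 comparisons. Outside the 5 genes, the quinone reductase gene Nqo1 rose with Ube2m shRNA, and Aldh3a1 and Gsta2 had a group mean over the low-signal level with Ube2m shRNA alone, while Cyp1a1, Cyp1a2 and Ahrr stayed below the level needed for a test.

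The stretch directly upstream of the start is shown for the members with a promoter sequence to show where the receptor's core motif lies. RefSeq promoter sequences on build GRCm38.p6 were at hand for 3 of the 5 members, and the 250 bases before the start of each are printed on the strand of the gene, with the core GCGTG in capitals (CACGC where it lies on the opposite strand).
Cyp1b1, chr17:79715062-79715311, minus strand: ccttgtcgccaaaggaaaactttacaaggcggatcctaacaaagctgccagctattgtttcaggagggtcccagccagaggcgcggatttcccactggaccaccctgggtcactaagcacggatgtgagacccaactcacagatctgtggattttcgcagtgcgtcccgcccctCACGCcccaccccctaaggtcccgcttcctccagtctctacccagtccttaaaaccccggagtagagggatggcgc
Arnt, chr3:95434140-95434389, plus strand: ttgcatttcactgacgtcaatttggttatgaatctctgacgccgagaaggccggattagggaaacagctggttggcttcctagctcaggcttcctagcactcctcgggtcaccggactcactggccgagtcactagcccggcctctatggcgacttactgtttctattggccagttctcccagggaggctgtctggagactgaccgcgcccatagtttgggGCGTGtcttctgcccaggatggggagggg
Tiparp, chr3:65528197-65528446, plus strand: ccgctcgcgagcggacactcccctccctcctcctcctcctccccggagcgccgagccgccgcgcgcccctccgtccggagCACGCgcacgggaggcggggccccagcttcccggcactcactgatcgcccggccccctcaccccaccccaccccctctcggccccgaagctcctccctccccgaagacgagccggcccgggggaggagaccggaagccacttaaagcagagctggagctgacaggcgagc
Each of the 3 windows held 1 match, whose first base lay 76 bases before the start in Cyp1b1, 29 in Arnt and 170 in Tiparp. Both strands were searched, and the match was on the gene's own strand in Arnt and on the opposite strand in Cyp1b1 and Tiparp. The core is short, and 28.2% of 32851 promoters held it in a window of the same length. The longer form TNGCGTG, which contains the core, was in 0 of the 3 windows and in 4.1% of all promoters. These matches are a description of letters in this window and show neither binding nor its absence.

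The deposited values are linear signals of each probe set, scaled so that the mean after trimming 2% at each end was 500 on every array. Arrays carry no read depth, so their number sets the precision. Median signals were 53.3 to 58.5 on the arrays of replicates 1 and 2 and 64 to 73.5 on those of replicate 3. The ratio of 3' to 5' actin probes, a sign of RNA integrity, was 1.82 on control replicate 1 and 1.24 to 1.35 on the other 8 arrays. The brightest Ube2f probe set (1450275_x_at) read 3028.6, 3140.0 and 2700.4 with Ube2m shRNA, 134.9, 117.9 and 143.8 with Ube2f shRNA, and 2366.7, 2492.0 and 2757.1 with control shRNA. By this set Ube2f was at 5.21% of the control mean in the group that targets it. Other Ube2f sets gave 5.21% (1451272_a_at), 6.21% (1429568_x_at) and 13.2% (1432426_a_at), and the dim sets 1436254_at and 1455569_at gave 31.4% and 116%. No probe set names Ube2m alone, so its reduction was not checked. Of 9 fibroblast markers 8 were over the low-signal level, with summed signals of 106833 to 118141 with Ube2m shRNA, 118293 to 134380 with Ube2f shRNA and 106359 to 132734 with control shRNA. Of 5 epithelial markers 2 were over that level, with sums of 316 to 400 with Ube2m shRNA, 408 to 511 with Ube2f shRNA and 302 to 396 with control shRNA, and of 5 macrophage markers 2 were, with sums of 350 to 611, 388 to 432 and 478 to 518. All endothelial and adipocyte markers were under it, with sums of at most 135 and 93.4 on any array. Their part in the results was not tested, and in bulk RNA fewer cells with a transcript and less of it per cell cannot be told apart.

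Differences are given on the scale of log2(signal + 16), which understates the change of dim genes, with standard errors (SE) from a limma fit to all 9 arrays. Probe sets at or above 6.12 on that scale, a signal of 53.8, passed the low-signal filter, and all 5 members did so through the probe set with the highest mean. Ahr passed it through the Ube2m shRNA arrays alone, so its calls below were in part fixed by the filter. With Ube2m shRNA, 3 of the 5 members were past an adjusted p of 0.05 and higher, where 3.59% of 10613 genes tested were called higher and 9.71% were called in either direction. With Ube2f shRNA, 1 of the 5 was called and lower, where 2.96% of genes were called lower, 2.23% higher and 5.19% in either direction. Between Ube2m and Ube2f shRNA, 3 were called higher, beside 6.37% of all genes called higher, 9.38% lower and 15.8% in either direction. With the replicate number as a block, Tiparp was also called higher with Ube2m shRNA. That made 4 of the 5 against control and 4 between the hairpins. Of the 10613 genes, 729 and 992 were called higher with that block, and 1866 and 2493 in either direction. With replicate 3 as a batch term, 4 were called higher against control and all 5 between the hairpins. Of all genes, 827 and 1072 were then called higher, and 2118 and 2714 in either direction. The member counts come from the contrasts in view when the genes were chosen, and nothing is read from them. Over all genes 1031 were called with Ube2m shRNA, and 443 without Ube2m replicate 1, 388 without Ube2m replicate 2 and 472 without control replicate 1. With Ube2f shRNA the number was 551, and it was 195 without Ube2f replicate 1, 342 without Ube2f replicate 2 and 281 without control replicate 1. Between the hairpins 1672 genes were called, and 1063, 1017 and 1018 without Ube2m replicate 1, Ube2m replicate 2 and Ube2f replicate 1. The comparisons with control share the control arrays.

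Ahr encodes the receptor itself. Its brighter probe set (1422631_at) read 163.6, 181.9 and 274.0 with Ube2m shRNA, 22.2, 39.4 and 51.3 with Ube2f shRNA, and 32.6, 55.2 and 67.2 with control shRNA. All 3 Ube2m shRNA arrays lay above all arrays of both other groups, which overlapped each other. Arrays did not overlap for 29.7% of all genes between Ube2m shRNA and control and for 34.4% between the hairpins. Means were 207 ± 59.2, 37.6 ± 14.6 and 51.7 ± 17.6 with Ube2m, Ube2f and control shRNA (SD, n = 3 each). The log2 difference from control was 1.72 (SE 0.31) with Ube2m shRNA and -0.34 (SE 0.31) with Ube2f shRNA, and it was 2.06 (SE 0.31) between the hairpins. The mean log2 values of 5.71 with Ube2f shRNA and 6.05 with control shRNA lay under the low-signal level and that of 7.77 with Ube2m shRNA above it, so Ahr passed the filter through the Ube2m shRNA arrays alone and its fold depends on the constant added. With 64 in place of 16 the Ube2m difference was 1.22 from control and 1.40 from Ube2f shRNA. The other Ahr probe set (1450695_at) was under the low-signal level on average, at 70.3, 55.7 and 82.8 with Ube2m shRNA, 36.1, 22.6 and 75.2 with Ube2f shRNA, and 52.2, 53.0 and 56.5 with control shRNA. Its groups overlapped, with log2 differences from control of 0.28 with Ube2m shRNA and -0.30 with Ube2f shRNA. With both probe sets averaged the Ube2m difference from control was 1.00 and from Ube2f shRNA 1.32.

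Arnt encodes the partner that the receptor needs to bind DNA. The brightest of its 5 probe sets (1437042_at) read 767.9, 811.3 and 689.2 with Ube2m shRNA, 590.7, 484.3 and 566.6 with Ube2f shRNA, and 777.3, 893.4 and 490.9 with control shRNA. The control arrays overlapped both other groups, and the Ube2m and Ube2f shRNA arrays did not overlap each other. Between the hairpins arrays did not overlap for 34.4% of all genes, and Arnt was not called there in the main fit. Means were 756 ± 61.9 with Ube2m shRNA, 547 ± 55.8 with Ube2f shRNA and 721 ± 207 with control shRNA (SD, n = 3 each). Against control, the log2 difference was 0.11 (SE 0.19) with Ube2m shRNA and -0.35 (SE 0.19) with Ube2f shRNA, and it was 0.46 (SE 0.19) for Ube2m against Ube2f shRNA. Control replicate 3 was the low array: within replicates 1 and 2 the Ube2m difference from control was -0.08 and within replicate 3 it was 0.48, and the Ube2f difference was -0.63 and 0.20.

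The other Arnt probe sets did not share 1 direction. On 1419996_s_at, whose suffix marks probes that can match more than 1 transcript, signals were 404.6, 379.0 and 370.1 with Ube2m shRNA, 585.1, 383.0 and 486.7 with Ube2f shRNA, and 493.6, 469.2 and 197.9 with control shRNA. Control replicate 3 was again low, and the log2 differences from control were 0.09 with Ube2m shRNA and 0.40 with Ube2f shRNA. On 1421721_a_at they were 0.39 and 0.20, from 249.8, 297.4 and 262.7 with Ube2m shRNA, 215.7, 221.9 and 268.1 with Ube2f shRNA, and 184.1, 249.5 and 180.2 with control shRNA. The Ube2m shRNA arrays lay just above the control arrays there, and arrays of those groups did not overlap for 29.7% of all genes. Both remaining sets, 1449696_at and 1425064_at, were under the low-signal level, with signals of 4.2 to 75.4 over the 9 arrays and overlapping groups.

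Cyp1b1 encodes a cytochrome P450 mono-oxygenase that oxidises polycyclic aromatic hydrocarbons and oestradiol, and it is the Cyp1 enzyme known from mouse embryo fibroblasts. Its brightest probe set (1416612_at) read 1922.2, 2049.8 and 2711.7 with Ube2m shRNA, 304.2, 184.7 and 308.7 with Ube2f shRNA, and 826.7, 652.2 and 477.8 with control shRNA. The 3 groups were fully apart on this probe set, with Ube2m shRNA highest and Ube2f shRNA lowest. Means were 2228 ± 424 with Ube2m shRNA, 266 ± 70.3 with Ube2f shRNA and 652 ± 174 with control shRNA (SD, n = 3 each). The log2 difference from control was 1.77 (SE 0.22) with Ube2m shRNA and -1.25 (SE 0.22) with Ube2f shRNA. Between the hairpins it was 3.01 (SE 0.22), with Ube2m shRNA higher. Arrays of groups that do not overlap were found for 29.7% of genes with Ube2m shRNA, 23.2% with Ube2f shRNA and 34.4% between the hairpins, so the separation alone is common here.

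The size of the Cyp1b1 difference varied between replicates. Within replicates 1 and 2 the Ube2m difference from control was 1.42 and within replicate 3 it was 2.47, while the Ube2f difference was -1.57 and -0.61. The Ube2m to Ube2f difference was 2.98 and 3.07, nearly the same in both. Control signals were lower in replicate 3 (477.8) and Ube2m signals higher (2711.7), which moves both control comparisons. Without control replicate 1, the array with the high actin ratio, the differences were 1.95 and -1.06, and over all arrays left out in turn they ranged from 1.56 to 1.95 with Ube2m shRNA, from -1.45 to -1.02 with Ube2f shRNA and from 2.78 to 3.13 between the hairpins.

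A further Cyp1b1 probe set gave the same order. On 1416613_at signals were 849.8, 806.2 and 1077.2 with Ube2m shRNA, 119.8, 113.8 and 105.3 with Ube2f shRNA, and 332.7, 332.3 and 241.8 with control shRNA. The groups were again apart, and the log2 differences were 1.55 with Ube2m shRNA and -1.29 with Ube2f shRNA against control and 2.84 between the hairpins (SE 0.178 each). The last set, 1432081_at, was under the low-signal level with 16.5, 30.1 and 6.3 with Ube2m shRNA, 13.7, 24.7 and 16.6 with Ube2f shRNA and 52.8, 3.1 and 17.0 with control shRNA, which overlapped. Averaging it in lowered the differences of the gene to 1.06, -0.86 and 1.92 in the 3 comparisons.

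Tiparp encodes a mono-ADP-ribosyltransferase that is induced by the receptor and represses it. Its brightest probe set (1426721_s_at) read 1701.7, 1900.1 and 2409.3 with Ube2m shRNA, 1523.8, 1356.2 and 1713.7 with Ube2f shRNA, and 1460.4, 1362.5 and 1907.1 with control shRNA. All 3 groups overlapped in part, and replicate 3 was the highest array of each. Means were 2004 ± 365, 1531 ± 179 and 1577 ± 290 with Ube2m, Ube2f and control shRNA (SD, n = 3 each). Against control, the log2 differences were 0.34 (SE 0.16) with Ube2m shRNA and -0.03 (SE 0.16) with Ube2f shRNA, and 0.38 (SE 0.16) separated the hairpins. The same-numbered Ube2m and Ube2f shRNA arrays differed by 0.16, 0.48 and 0.49, all one way. With the replicate number as a block the standard error for Tiparp was 0.095. For Cyp1b1, Ahr, Arnt and Xdh it was 0.21, 0.24, 0.16 and 0.20. Whether the replicate numbers pair samples is not settled, so the main fit has no replicate term. On 1452160_at the Ube2m shRNA arrays (725.5, 726.9 and 967.2) lay above the Ube2f shRNA arrays (487.5, 446.7 and 692.8) and the control arrays (423.3, 562.1 and 569.7). Arrays did not overlap for 34.4% of all genes between the hairpins and for 29.7% between Ube2m shRNA and control. The log2 difference from control on this set was 0.62 for Ube2m shRNA and 0.05 for Ube2f shRNA. On 1452161_at signals were 564.5, 692.8 and 1262.3 with Ube2m shRNA, 477.4, 458.4 and 998.5 with Ube2f shRNA, and 173.7, 370.9 and 567.1 with control shRNA. The groups overlapped on that set, with differences from control of 1.21 and 0.82 and a standard error of 0.417. Averaged over its probe sets, Tiparp differed by 0.72 between Ube2m shRNA and control, so its size depends on which probe set is read.

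Xdh encodes xanthine dehydrogenase, which oxidises hypoxanthine and xanthine to uric acid. Its single probe set (1451006_at) read 237.5, 230.8 and 257.8 with Ube2m shRNA, 108.4, 125.8 and 124.9 with Ube2f shRNA, and 104.4, 76.9 and 80.0 with control shRNA. No arrays of the groups overlapped, and the control mean was the lowest, where for Cyp1b1 that of Ube2f shRNA was. The gap between Ube2f shRNA and control was narrow, at 108.4 against 104.4 in replicate 1, a log2 difference of 0.05. Xdh was not called between them, and their arrays did not overlap for 23.2% of all genes. That share was 29.7% between Ube2m shRNA and control and 34.4% between the hairpins. Means were 242 ± 14.1 with Ube2m shRNA, 120 ± 9.80 with Ube2f shRNA and 87.1 ± 15.1 with control shRNA (SD, n = 3 each). The log2 difference from control was 1.33 (SE 0.19) with Ube2m shRNA and 0.40 (SE 0.19) with Ube2f shRNA, and 0.93 (SE 0.19) between the hairpins. Replicates 1 and 2 gave 1.24 and 0.33 against control, and replicate 3 gave 1.51 and 0.55.

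**Figure D1:**
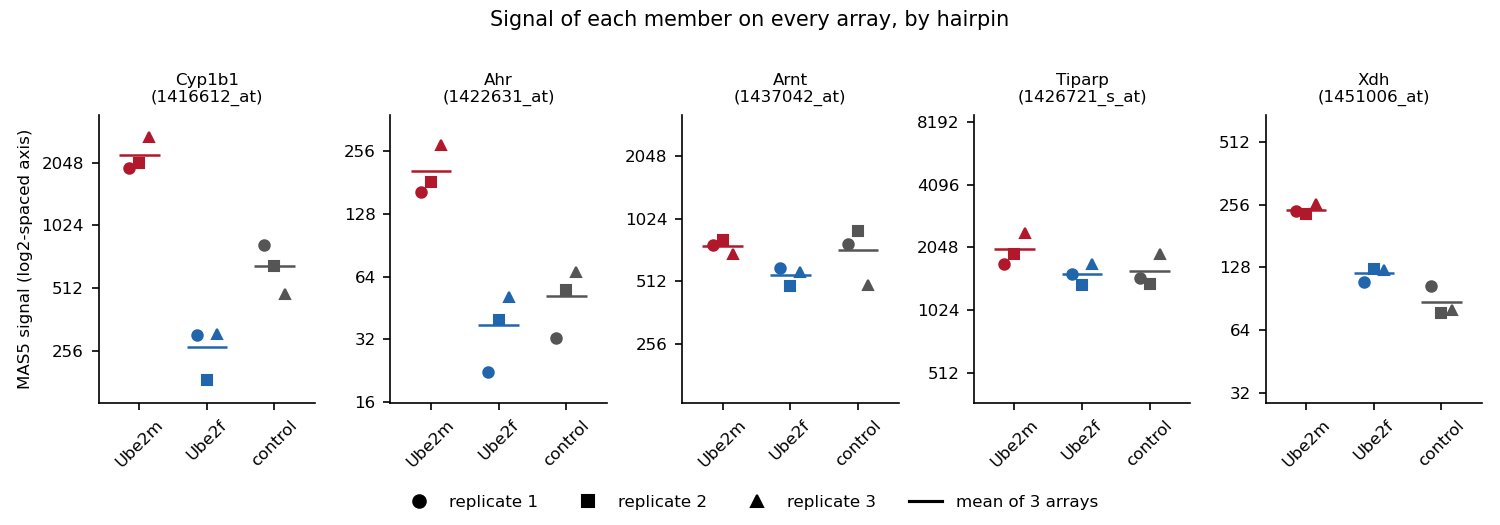
Signal of the brightest probe set of each member on every array (log2-spaced axis, same span for every gene), with Ube2m, Ube2f and control shRNA from left to right and lines at the group means. The 3 groups are apart for Cyp1b1 and, narrowly between Ube2f and control shRNA, for Xdh, and the Ube2m shRNA arrays alone stand apart for Ahr. For Arnt the control arrays overlap both other groups, which are apart from each other, and for Tiparp all groups overlap in part. Of all genes, 29.7% were apart with Ube2m shRNA against control, 23.2% with Ube2f shRNA against control and 34.4% between the hairpins.

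The 14 probe sets together show how far sets of 1 gene went together. Both brighter Cyp1b1 sets, the brighter Ahr set and the Xdh set were 1.33 to 1.77 higher on the log2 scale with Ube2m shRNA than with control, and the third Cyp1b1 set and the dimmer Ahr set, both at low signal, were at -0.13 and 0.28. All 3 Tiparp sets were higher with Ube2m shRNA, by 0.34 to 1.21. The Arnt sets ranged from 0.09 to 0.39 with Ube2m shRNA.

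**Figure D2:**
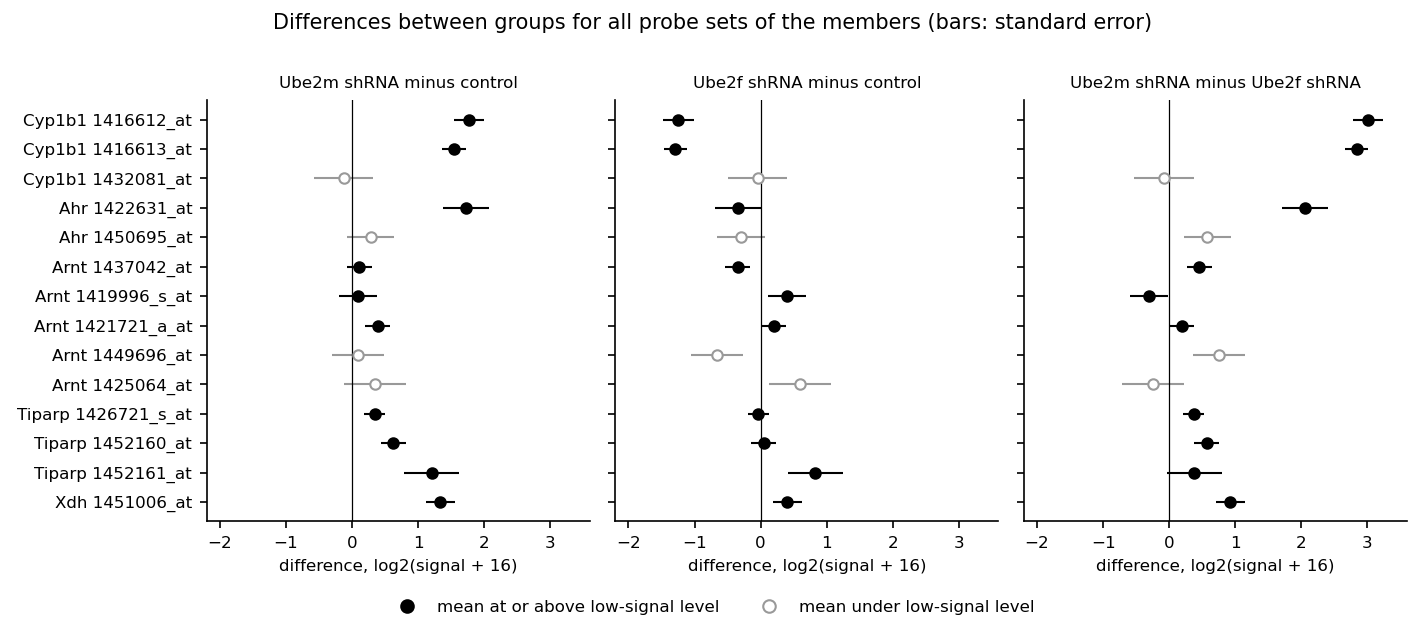
Log2 differences between groups for all 14 probe sets of the 5 members, in the 3 comparisons, with bars for the standard error and open points for sets under the low-signal level. Both brighter Cyp1b1 sets lie above 0 with Ube2m shRNA and below 0 with Ube2f shRNA, at 1.77 and 1.55 with Ube2m shRNA and -1.25 and -1.29 with Ube2f shRNA.

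Of the receptor's known target genes other than the members, the quinone reductase gene Nqo1 rose with Ube2m shRNA, and Socs2 rose with Ube2f shRNA. Of 28 listed genes 23 had a probe set and 14 passed the low-signal filter. This list and those below were chosen with earlier results of these data known. Their shares beside all genes are therefore descriptions, and their p-values are not independent support. With Ube2m shRNA 4 were higher and 2 lower, 42.9% of those tested, beside 9.71% of all genes, and the median log2 fold change was 0.21 against -0.04 over all genes. With Ube2f shRNA 1 was higher and 0 lower, 7.14% beside 5.19%, with a median of -0.17 against 0.01. Between the hairpins 5 were higher and 3 lower, 57.1% beside 15.8%, with a median of 0.41 against -0.04. Aldh3a1, Gsta2 and Vav3 had a group mean under the low-signal level and so passed the filter through the groups where they are high. Among the 11 genes with all group means over it, 2 were higher and 2 lower with Ube2m shRNA, 1 was higher with Ube2f shRNA, and 2 were higher and 3 lower between the hairpins. Over all 14, the first count was 3 without Ube2m replicate 1, the second 2 without control replicate 2, and the third 5 without Ube2m replicate 1 or 2. As background, several of these genes answer to other regulators as well, and the activity of none of these regulators was measured here.

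Nqo1, a quinone reductase, rose with Ube2m shRNA, with signals of 16042.3, 16957.7 and 11846.1, against 4201.4, 4357.7 and 3623.1 with control shRNA. With Ube2f shRNA it read 3783.3, 3977.5 and 3003.6, which overlapped the control arrays. The log2 fold change was 1.86 (SE 0.15, limma adjusted p = 1.59e-05) with Ube2m shRNA and -0.18 (adjusted p = 0.543) with Ube2f shRNA, and 2.05 (adjusted p = 3.62e-06) between the hairpins. Aldh3a1, an aldehyde dehydrogenase, averaged 982 ± 285 with Ube2m shRNA, 48.0 ± 16.3 with Ube2f shRNA and 48.5 ± 14.8 with control shRNA (SD, n = 3 each). The log2 difference from control was 3.94 (SE 0.27) with Ube2m shRNA and -0.02 with Ube2f shRNA. Gsta2, a glutathione transferase with close relatives whose transcripts its probes may also detect, averaged 742 ± 178 with Ube2m shRNA, 13.1 ± 14.2 with Ube2f shRNA and 19.1 ± 17.1 with control shRNA (SD, n = 3 each). Its log2 difference from control was 4.53 (SE 0.41) with Ube2m shRNA and -0.25 with Ube2f shRNA. Aldh3a1 and Gsta2 were under the low-signal level in control and Ube2f shRNA cells, so their differences are given without p-values and depend on the constant, with 3.19 and 3.28 for a constant of 64.

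Socs2, an inhibitor of cytokine and growth hormone signalling, moved the other way. It averaged 296 ± 28.6 with Ube2m shRNA, 1600 ± 196 with Ube2f shRNA and 582 ± 228 with control shRNA (SD, n = 3 each). It rose with Ube2f shRNA by 1.49 on the log2 scale (SE 0.21, limma adjusted p = 0.00183) and was lower with Ube2m than with Ube2f shRNA, at a log2 fold change of -2.37 (adjusted p = 1.74e-05). Its difference of -0.88 between Ube2m shRNA and control (adjusted p = 0.024) lost the call without Ube2m replicate 1, 2 or 3, at adjusted p of 0.0786, 0.0574 and 0.0577. With the probe sets of Socs2 averaged, the fold change was 0.98 with Ube2f shRNA (adjusted p = 0.029), -1.38 between the hairpins (adjusted p = 0.0014) and -0.40 with Ube2m shRNA (adjusted p = 0.307). Ccng2, an atypical cyclin, averaged 786 ± 74.1 with Ube2m shRNA, 462 ± 76.1 with Ube2f shRNA and 433 ± 134 with control shRNA (SD, n = 3 each). Its fold change of 0.88 with Ube2m shRNA (adjusted p = 0.0186) lost the call without control replicate 1 and Ube2m replicates 1 and 2, at adjusted p of 0.0625, 0.0733 and 0.0747, and its 0.76 between the hairpins (adjusted p = 0.0238) without Ube2m replicate 1 or 2 or Ube2f replicate 2, at 0.0815 to 0.0974. Ugdh, which makes UDP-glucuronate, was lower with Ube2m than with Ube2f shRNA, at -0.50 (adjusted p = 0.0086). The 3 remaining calls were named after their values were seen: Slc7a5, an amino acid transporter, at -0.53 with Ube2m shRNA (adjusted p = 0.022; 0.0603 to 0.0895 without control replicate 1 or Ube2m replicate 1 or 3), and Vav3 at 1.13 and Cdkn1b at -0.60 between the hairpins (adjusted p = 0.0456 for Cdkn1b). The Vav3 mean was under the low-signal level with Ube2f shRNA, so no p is given, and its call was lost without any 1 Ube2m array or Ube2f replicate 1. The Cdkn1b call was lost without Ube2m replicate 1 or 2 or any 1 Ube2f array (0.0811 to 0.151), and Cdkn1b was at -0.14 with its probe sets averaged (adjusted p = 0.796). With each array centred on its own median, Ccng2, Ugdh, Slc7a5 and Cdkn1b kept their sign and lost these calls (adjusted p = 0.0871 and 0.0956 for Ccng2, 0.0923 for Ugdh, 0.12 for Slc7a5 and 0.0791 for Cdkn1b).

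The Cyp1a genes and the receptor's repressor gave low signals. Cyp1a1, the best known induced P450 of the receptor, read 35.5, 57.1 and 36.6 with Ube2m shRNA, 3.0, 3.3 and 19.0 with Ube2f shRNA, and 36.5, 10.2 and 5.7 with control shRNA. The Ube2m and control arrays overlapped, and the gene was not tested. Cyp1a2 read 1.9, 1.6 and 8.3 with Ube2m shRNA, 12.2, 9.6 and 2.3 with Ube2f shRNA, and 14.0, 3.6 and 14.7 with control shRNA. Ahrr, the repressor that the receptor induces, read 20.3, 16.4 and 32.0 with Ube2m shRNA, 9.0, 1.6 and 21.7 with Ube2f shRNA, and 1.5, 1.2 and 11.3 with control shRNA. At these signals the arrays do not show whether the genes are expressed.

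**Figure D3:**
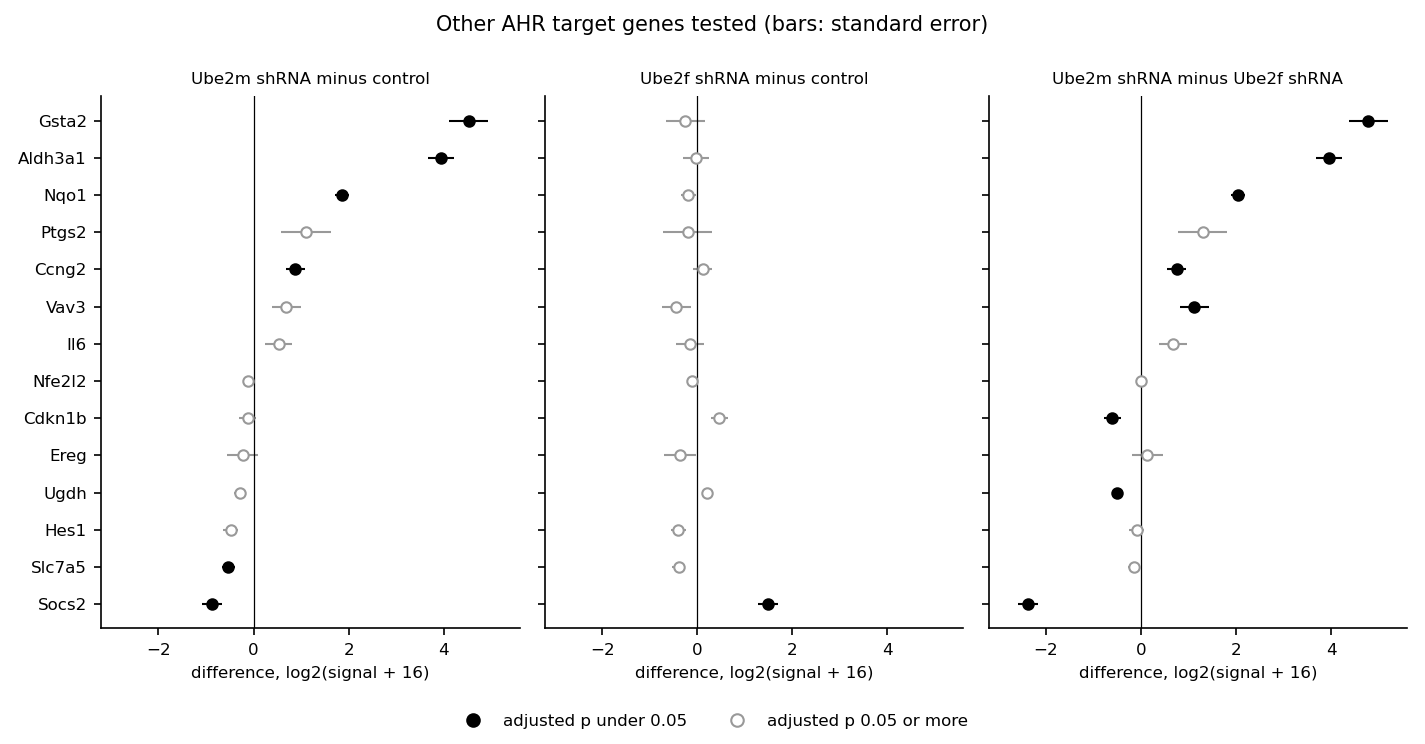
Log2 differences of the 14 other target genes tested, with bars for the standard error and filled points for an adjusted p under 0.05, for each hairpin against control and for Ube2m against Ube2f shRNA. Nqo1, Aldh3a1 and Gsta2 lie between 1.86 and 4.53 with Ube2m shRNA, and Socs2 lies at 1.49 with Ube2f shRNA. Aldh3a1, Gsta2 and Vav3 had a group mean under the low-signal level and passed the filter through the groups where they are high. Their filled points were thus in part fixed by the filter and are not read as calls.

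The receptor's chaperones, coactivators, repressor and ligase subunits showed few calls. Of 15 listed genes 12 had a probe set of their own and 10 were tested. With Ube2m shRNA 0 were higher and 1 lower (1 and 3 at an unadjusted p under 0.05), 10% beside 9.71% of all genes, and in the other comparisons 0 were called by limma (at an unadjusted p under 0.05, 0 higher and 3 lower with Ube2f shRNA, and 1 higher and 0 lower between the hairpins, with 1 call there without Ube2f replicate 3). The 1 call, the acetyltransferase Crebbp, was at -0.40 (adjusted p = 0.0472), was lost without any 1 of 7 arrays (all but Ube2m replicate 3 and Ube2f replicate 3; adjusted p 0.0555 to 0.182), and was 0.12 with its probe sets averaged. Of the other bHLH-PAS genes, which share the receptor's DNA-binding and dimerisation domains, 12 of 17 were tested. By limma 0 were called against control with either hairpin (at an unadjusted p under 0.05, 1 higher and 2 lower with Ube2m shRNA, and 1 higher and 0 lower with Ube2f shRNA), and 1 was with Ube2m shRNA without Ube2m replicate 3. Between the hairpins 1 was lower, 8.33% beside 15.8%, 2 were without Ube2f replicate 1 or 3, and 4 were called with the replicate number as a block. That 1 was Hif1a, the hypoxia factor that also pairs with ARNT, at -0.43 (adjusted p = 0.0126, and 0.0628 without Ube2m replicate 1). With its probe sets averaged Hif1a was at -0.17 (adjusted p = 0.601), and with arrays centred on their medians at -0.45 (adjusted p = 0.114). Arnt2, a close relative of Arnt, had log2 fold changes of 0.24 with Ube2m shRNA (adjusted p = 0.647) and 0.03 with Ube2f shRNA (adjusted p = 0.965).

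Cytochrome P450 enzymes need electrons from partner proteins, and 6 of 8 such genes had a probe set and were tested. Cyb5a, cytochrome b5, rose with Ube2m shRNA by 1.10 on the log2 scale (SE 0.095, limma adjusted p = 3.4e-05), with means of 9047 ± 404 with Ube2m shRNA, 5039 ± 387 with Ube2f shRNA and 4223 ± 130 with control shRNA (SD, n = 3 each). With Ube2m shRNA 1 of the 6 was higher and 0 lower, 16.7% beside 9.71%, and 2 were called without control replicate 2 or 3. Between the hairpins 3 were higher and 2 lower, 83.3% beside 15.8%, but with each array centred on its own median the count was 1, Cyb5a, and without probe sets of the _s_at, _x_at and _a_at kinds it was 3. The 3 were Cyb5a at 0.84 (adjusted p = 9.34e-05), its outer mitochondrial relative Cyb5b at 0.66 (adjusted p = 0.00752) and the P450-binding haem protein Pgrmc1 at 0.50 (adjusted p = 0.00679). The 2 lower were mitochondrial ferredoxin Fdx1 at -0.44 (adjusted p = 0.00991) and the reductase Cyb5r1 at -0.57 (adjusted p = 0.0259), whose call was lost without any 1 Ube2m array or Ube2f replicate 1 or 2 (0.0563 to 0.102). Under that centring Cyb5b, Pgrmc1, Fdx1 and Cyb5r1 kept their sign at adjusted p of 0.106, 0.168, 0.151 and 0.189. With Ube2f shRNA 1 was higher, Fdx1 at 0.37 (adjusted p = 0.0497), a call lost without any 1 of 8 arrays (all but Ube2f replicate 3; 0.0589 to 0.178).

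Of 70 other P450 genes 10 passed the low-signal filter. With Ube2m shRNA 1 was called, 10% beside 9.71%, with Ube2f shRNA 2, 20% beside 5.19%, and between the hairpins 2, 20% beside 15.8%. Cyp51, the lanosterol demethylase of cholesterol synthesis, fell with Ube2f shRNA by 0.71 on the log2 scale (SE 0.12, limma adjusted p = 0.00418), with means of 4168 ± 572 with Ube2f shRNA and 6811 ± 745 with control shRNA (SD, n = 3 each). With its probe sets averaged that difference was -0.42 (adjusted p = 0.177). It was higher with Ube2m than with Ube2f shRNA by 1.13 (adjusted p = 5.19e-05), and its 0.42 against control with Ube2m shRNA (adjusted p = 0.0423) was lost without any 1 of 6 arrays (control replicates 1 and 2, the 3 Ube2m arrays and Ube2f replicate 1; adjusted p 0.0559 to 0.142). Cyp4v3, a fatty acid hydroxylase, was at 0.81 with Ube2f shRNA (adjusted p = 0.0442), lost without any 1 of 7 arrays (all but Ube2m replicates 1 and 3; 0.0566 to 0.143). It was at 0.55 with its probe sets averaged (adjusted p = 0.175) and at 0.28 without sets of the _s_at kind (adjusted p = 0.59). Cyp26b1, which breaks down retinoic acid, was at -0.94 between the hairpins (adjusted p = 0.024), lost without Ube2m replicate 1 or 2 or Ube2f replicate 3 (0.073 to 0.103). Cyp51 had the same order of group means as Cyp1b1, with 9061 ± 290 with Ube2m shRNA, and Cyp4v3 and Cyp26b1 did not.

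**Figure D4:**
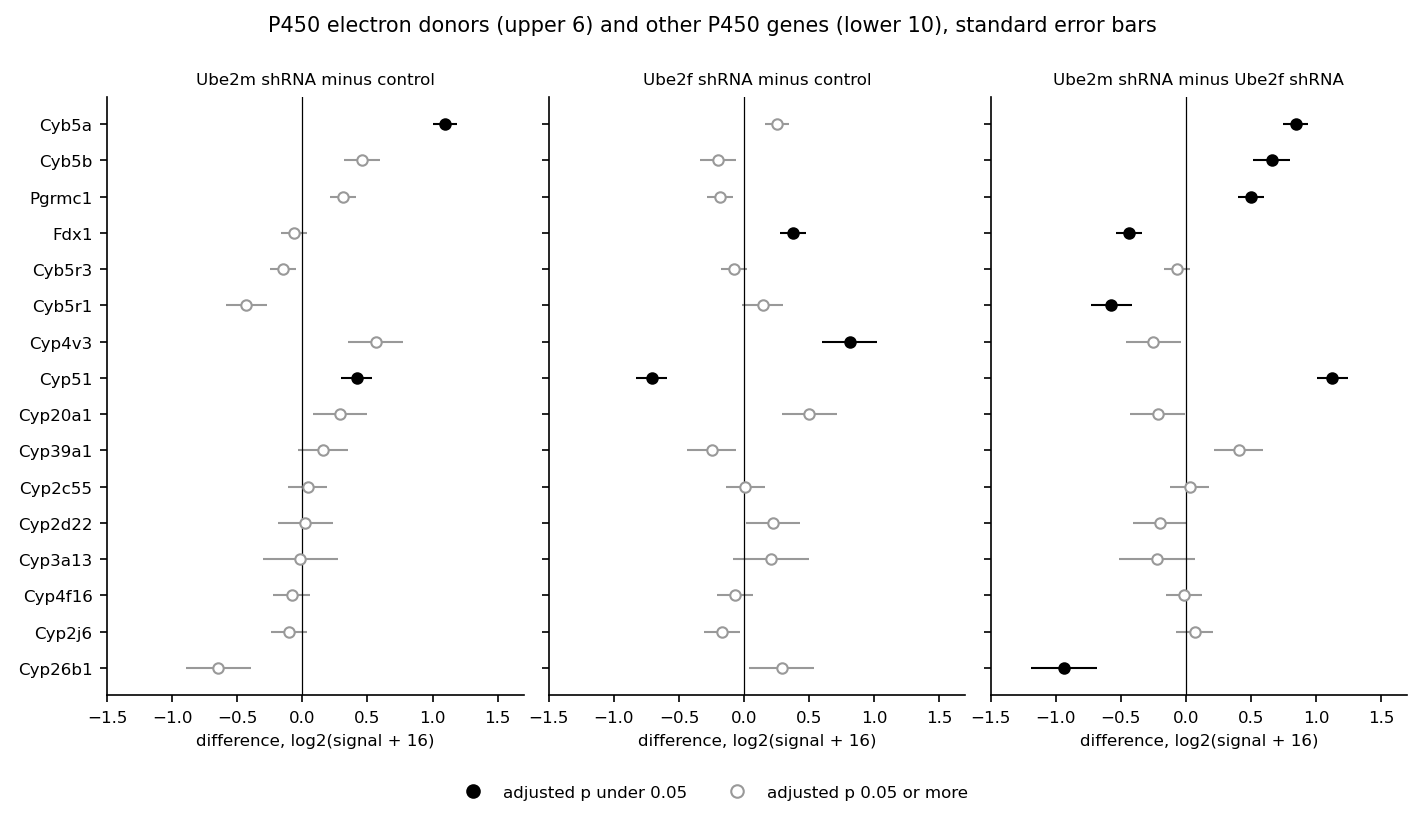
Log2 differences of the 6 electron donor genes (upper) and the 10 other P450 genes tested (lower) in the 3 comparisons, with bars for the standard error and filled points for an adjusted p under 0.05. Cyb5a lies at 1.10 with Ube2m shRNA, and Cyp51 at 0.42 with Ube2m shRNA and -0.71 with Ube2f shRNA.

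The other enzyme families around the members gave few calls. Of the PARP family, to which Tiparp belongs, 13 of 15 genes were tested. With Ube2m shRNA 1 was lower, 7.69% beside 9.71%, the antiviral protein gene Zc3hav1 at -0.54 (limma adjusted p = 0.027), which was lost without any 1 of 5 arrays (Ube2m replicates 1 to 3 and control replicates 1 and 3; 0.0671 to 0.0915) and was 0.12 with its probe sets averaged. With Ube2f shRNA 0 were called by limma (at an unadjusted p under 0.05, 2 higher and 2 lower). Between the hairpins 1 was lower, 7.69% beside 15.8%, the DNA repair enzyme gene Parp2 at -0.47 (adjusted p = 0.0322, 0.0816 to 0.14 without Ube2m replicate 1 or 3 or Ube2f replicate 1, and 0.168 with arrays centred on their medians). The count was 2 without control replicate 1 or 3, and 3 with the replicate number as a block.

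Xdh carries a molybdenum cofactor, and 12 of 18 genes for other molybdenum enzymes, cofactor synthesis and purine breakdown were tested. With Ube2m shRNA 1 was higher and 1 lower, 16.7% beside 9.71%. Ampd3, an AMP deaminase, rose by 0.84 (SE 0.10, limma adjusted p = 0.000485), with means of 2054 ± 103 with Ube2m shRNA, 1207 ± 101 with Ube2f shRNA and 1140 ± 40.1 with control shRNA (SD, n = 3 each). It was also higher than with Ube2f shRNA, by 0.76 (adjusted p = 0.00044). Mocs3, which serves cofactor synthesis, was at -0.70 (adjusted p = 0.0421), lost without any 1 of 7 arrays (all but Ube2f replicate 3 and control replicate 3; 0.0524 to 0.147), and at -0.35 with its probe sets averaged (adjusted p = 0.431). With Ube2f shRNA 0 were called by limma (0 at an unadjusted p under 0.05). Between the hairpins Ampd3 was the 1 call, 8.33% beside 15.8%, and 3 were called with the replicate number as a block.

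Kynurenine and its products, made from tryptophan, are ligands of the receptor, and 3 of 11 genes of that route were tested, and Ido1, Ido2 and Tdo2, which begin it, were under the low-signal level. By limma 0 were called against control with either hairpin (at an unadjusted p under 0.05, 1 higher and 0 lower in each). Between the hairpins 1 was lower, 33.3% beside 15.8%, the transaminase Kyat1 at -0.86, whose mean was under the low-signal level with Ube2m shRNA, so no p is given. The call was lost without any 1 of 7 arrays (all but Ube2m replicate 3 and control replicate 3), and 2 were called without control replicate 3 or with the replicate number as a block.

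The members were not alike in their pattern over the 9 arrays. Pearson's r with Cyp1b1 on the log2 scale was 0.87 for Ahr, 0.683 for Arnt, 0.648 for Tiparp and 0.732 for Xdh, as a description in which arrays of a group share their hairpin. Once the group means were taken out, the r of the deviations was -0.182, 0.556, 0.188 and 0.379. The 5 named genes most like Cyp1b1 by Pearson's r over the 9 arrays, group means included, were Slc22a23 (0.985), Fam83h (0.985), Ctnnal1 (0.979), Slc40a1 (0.979) and Matn2 (0.979). They were picked for their likeness on these arrays, so their differences are descriptions. Slc40a1, the iron exporter ferroportin, read 658.5, 642.8 and 660.8 with Ube2m shRNA, 84.5, 57.2 and 96.8 with Ube2f shRNA, and 168.1, 182.7 and 187.8 with control shRNA. Its log2 differences were 1.78 and -1.06 against control and 2.83 between the hairpins, close in size to those of Cyp1b1. Slc22a23, a member of the organic ion transporter family, averaged 934 ± 169 with Ube2m shRNA, 129 ± 48.8 with Ube2f shRNA and 285 ± 60.8 with control shRNA (SD, n = 3 each), with differences of 1.66 and -1.09 against control. The other 3, Fam83h, Ctnnal1 and the matrix protein gene Matn2, had the same order of groups with smaller steps, from 0.27 to 0.65 with Ube2m shRNA and from -0.38 to -0.26 with Ube2f shRNA. The r of deviations from the group means was 0.725 for Slc22a23, 0.855 for Fam83h, 0.524 for Ctnnal1, 0.486 for Slc40a1 and 0.942 for Matn2.

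**Figure D5:**
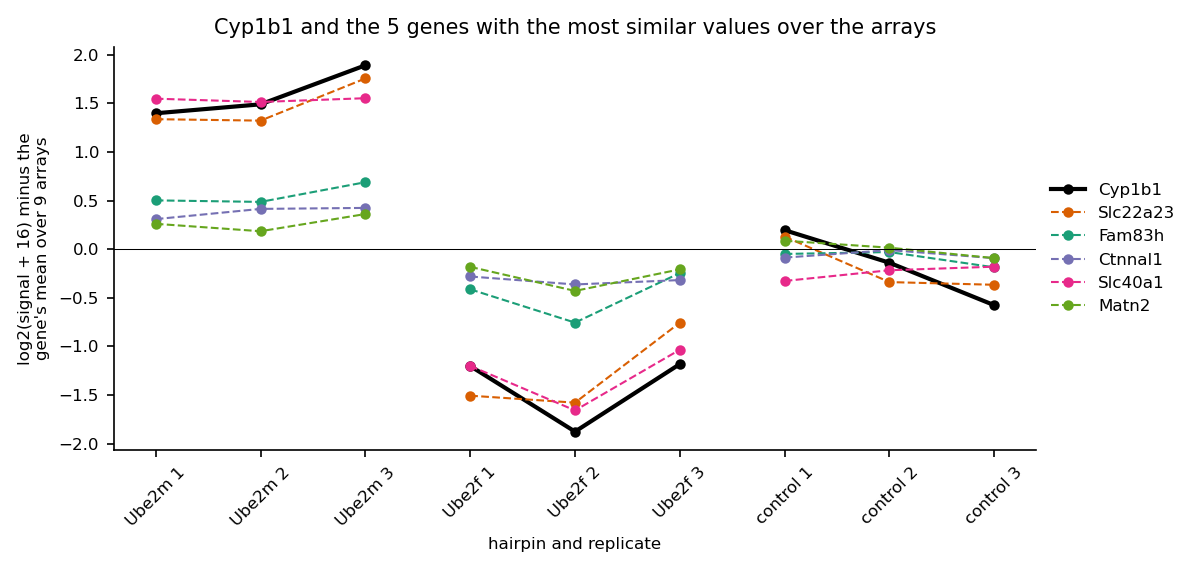
Values of Cyp1b1 and the 5 genes most like it on each array, as log2(signal + 16) minus the gene's mean over the 9 arrays, with Ube2m, Ube2f and control shRNA from left to right and lines broken between groups. Cyp1b1, Slc40a1 and Slc22a23 span the widest range, with Ube2m shRNA highest and Ube2f shRNA lowest for all 6 genes.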

How the data were processed

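RNA of 9 NIH 3T3 cultures, 3 per hairpin, was measured on 1-colour Affymetrix arrays from 6 ug of total RNA, per the labels. The deposited values are intensity (each probe set's signal on a linear scale), made by the authors with MAS5 per the submitters' processing notes. The sources used here give neither its version nor detection calls. The deposited table was read as it is. From it, log2(signal + 16) was computed, control probe sets and those naming several genes or none were left out (64, 932 and 9160), the probe set with the highest mean was kept per gene, and the 10613 genes with a mean log2 value of at least 6.12 were fitted with limma 3.58.1 in R 4.3.3 (1 mean per group, eBayes with trend, prior degrees of freedom 6.55). Two-sided p-values were adjusted (Benjamini-Hochberg) over the 10613 genes of each comparison, and 0.05 is the threshold. The fit was checked on simulated data. An exact permutation test of 3 against 3 arrays was not used. Probe sets were named by GEO's platform annotation.

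The members and gene lists were chosen with earlier results of these data known. Genes were named by rule: the members, up to 6 called genes per list, Cyp1a1, Cyp1a2, Ahrr, Nqo1 and Arnt2, all called P450 genes, and the 5 genes most correlated with Cyp1b1; 1 further gene is not reported here. Outside the rule, Slc7a5, Vav3 and Cdkn1b were named after their values were seen, and Ido1, Ido2 and Tdo2 as untested. The r of the deviations of same-numbered Ube2m and Ube2f shRNA arrays from their group means was 0.201, 0.211 and 0.557 in replicates 1, 2 and 3. Against control it was -0.00462, 0.185 and 0.317 with Ube2m shRNA and 0.0148, 0.157 and 0.349 with Ube2f shRNA. Replicate 3 had the highest r in every comparison, so these values do not settle whether the replicate numbers pair samples. The main fit therefore has no replicate term. Alternatives were other constants, filters, probe set choices, scalings, a replicate block, batch terms and leaving out each array.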

Additional observations from a re-analysis of the deposited data

How the results depend on the processing

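The 1031 and 551 genes called for Ube2m and Ube2f shRNA against control and the 1672 called between the hairpins became 607, 271 and 1109 when a gene's probe sets were averaged, 507, 222 and 864 with each array centred on its median, and 2118, 1461 and 2714 with replicate 3 as a batch term. With the replicate number as a block, which the main fit does not use, the comparisons with control gave 1866 and 1225 and that of the hairpins 2493. The block added Tiparp to the members called with Ube2m shRNA, against control and between the hairpins, and changed the list counts printed with it. Replicates 1 and 2 alone gave 1747 and 1121 against control, and fitting the Ube2f and control arrays by themselves gave 350. Leaving out 1 array at a time gave 388 to 1177, 195 to 583 and 1017 to 1813. The causes were not tested. The share of calls that were higher was 37%, 43% and 40.4% as deposited, 23.9%, 22.5% and 41.2% with arrays centred on their medians, and 55.3%, 43.9% and 53.5% with arrays centred on the median of the genes tested, an alternative added after seeing the data. Cyp1b1 was at 1.06, -0.86 and 1.92 with its probe sets averaged, and at 2.47 and -0.61 against control in replicate 3 alone; leaving out 1 array gave 1.56 to 1.95, -1.45 to -1.02 and 2.78 to 3.13. Crebbp and Zc3hav1 turned to 0.12 each with Ube2m shRNA when probe sets were averaged. Of 208 member differences that a setting changed at all, 186 moved by no more than the replicate spread and 22 by more. Leaving out 1 array cannot move a difference by more than this spread, so those settings fell within it by construction. The count of 186 is therefore no measure of stability. Signals near background limit Ahr, Cyp1a1, Cyp1a2 and Ahrr, and 3 arrays per group limit all values.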
